A study of Homo sapiens with 6 samples.

Results

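The 46 genes described here encode the chaperones, folding enzymes, translocation machinery and stress sensors of the endoplasmic reticulum (ER). They were taken by symbol from a table of 60780 rows and fell into 11 role groups, and each symbol was found in exactly 1 row with an Ensembl identifier. RNA was sequenced from the human hepatic stellate line LX-2 after a 24 h culture in the conditioned medium of HCT116, a human colorectal carcinoma line. The HCT116 cells stably carried an empty vector (Vector-CM, n = 3 libraries) or stably overexpressed FGFBP1, which is secreted and binds fibroblast growth factors, after lentiviral transduction and puromycin selection (FGFBP1-CM, n = 3 libraries). No source used here states that the 3 libraries of a group came from separate cultures, so the p-values measure the spread between these libraries, which may be technical. FGFBP1 is a product of the HCT116 cells, and its own counts in the LX-2 libraries were 0 to 4.

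Proteins destined for secretion enter the ER through the SEC61 channel, lose their signal peptide, receive glycans and disulfide bonds, and fold with the help of lumenal chaperones before they leave in COPII vesicles. When unfolded proteins accumulate, the sensors IRE1 (ERN1), PERK (EIF2AK3) and ATF6 start the unfolded protein response, in which spliced XBP1 and cleaved ATF6 raise the transcription of chaperone and degradation genes while PERK slows translation. Hepatic stellate cells are the main source of collagen and other matrix proteins in the injured liver, and they depend on this machinery for that output.

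Cleaved ATF6 acts at the ER stress response element (ERSE), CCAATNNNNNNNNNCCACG, where the factor NF-Y holds the CCAAT part and ATF6 the CCACG part, and at the related ERSE-II, ATTGGNCCACG. Promoter windows from 250 bases before to 50 bases after the gene start (RefSeq, GRCh38.p14) were available for 41 of the 46 genes, and PDIA3, FKBP10, DERL1, DERL3 and SPCS1 had no entry. On either strand and with no mismatch, ERSE was present in 6 of the 41 windows, or 14.6%, against 27 of all 34943 windows, or 0.0773%. ERSE-II was present in 3 of the 41, or 7.32%, against 0.0544% of all windows. The 41 hold 1 window per gene, whereas the 34943 hold every distinct window, so a gene can enter them more than once. The matches are printed because they show which of these windows hold the exact letters of the elements. An element with a mismatch or outside the window would not be found. Each runs 5′ to 3′ on the strand of the gene, with the fixed letters of the element in capitals and 5 flanking bases on each side. Positions give the first base of the element, which is the first capital, relative to the gene start. Where the element lies on the opposite strand the capitals read CGTGG before ATTGG or CCAAT.
HSPA5 ERSE (chr9:125241386-125241414, minus strand, from -66): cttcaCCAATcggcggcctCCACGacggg
CALR ERSE (chr19:12938379-12938407, plus strand, from -225): ccacgCGTGGtcgaccatcATTGGtcggt
CANX ERSE (chr5:179698773-179698801, plus strand, from -151): cccggCCAATcttcacactCCACGaagaa
HSP90B1 ERSE (chr12:103930211-103930239, plus strand, from -194): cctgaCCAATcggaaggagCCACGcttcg
HSP90B1 ERSE (chr12:103930316-103930344, plus strand, from -89): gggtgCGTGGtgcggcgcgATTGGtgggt
CRELD2 ERSE (chr22:49918549-49918577, plus strand, from -80): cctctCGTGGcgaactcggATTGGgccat
XBP1 ERSE (chr22:28800598-28800626, minus strand, from -52): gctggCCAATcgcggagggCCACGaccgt
HYOU1 ERSE-II (chr11:119057375-119057395, minus strand, from -185): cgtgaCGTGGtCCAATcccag
HYOU1 ERSE-II (chr11:119057269-119057289, minus strand, from -79): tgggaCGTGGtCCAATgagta
SDF2L1 ERSE-II (chr22:21642109-21642129, plus strand, from -188): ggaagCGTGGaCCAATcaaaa
HERPUD1 ERSE-II (chr16:56932020-56932040, plus strand, from -117): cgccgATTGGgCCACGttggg

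The 9 genes with an ERSE or ERSE-II were spread over chaperones (HSPA5, HSP90B1, HYOU1, CALR, CANX, SDF2L1), the secretable protein CRELD2, the transcription factor XBP1 and the degradation factor HERPUD1. By the exons of GENCODE release 29 (GRCh38), the match of CANX and both matches of HSP90B1 overlap an annotated exon and the other 8 matches do not. The letters TGACGTG, a core that spliced XBP1 and ATF6 can bind, occurred in 1 of the 41 windows (HYOU1, overlapping the first of its ERSE-II matches), against 1.97% of all windows. A CCAAT box, counted alone or as part of either element, was found in 33 of the 41 windows, or 80.5%, against 34.6% of all windows. A match describes only the letters of a window, and no binding was measured in this series.

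All 46 genes were detected and all were among the 16707 tested. Levels between genes are compared as FPKM, fragments scaled for gene length and library size as the authors deposited them, and levels between libraries as CPM, counts per 1000000 of the TMM-scaled library size. Mean FPKM over the 6 libraries ran from 0.478 for DERL3 to 282 for CALR, with a median of 21.2. By mean FPKM over the 6 libraries the most abundant transcripts were those of lumenal chaperones and folding enzymes. CALR stood at 282 ± 40.8 FPKM (SD over the 6 libraries), HSPA5 at 266 ± 46.4 FPKM and PDIA4 at 161 ± 37.8 FPKM. CALU came next at 141 ± 13.3 FPKM, and it was above PDIA4 in FGFBP1-CM replicate 1 (116 against 105 FPKM) and replicate 3 (145 against 125 FPKM). On this scale the sensors ERN1 and EIF2AK3 were near the opposite end, at 3.32 ± 0.0667 FPKM and 1.18 ± 0.0973 FPKM, while ATF6 reached 7.09 ± 0.428 FPKM and XBP1 27.1 ± 1.13 FPKM. CALR and HSPA5 differed by less than the spread of either over the libraries. The order also rests on the gene lengths behind the deposited FPKM. The implied length was 13092 bp for HSP90B1 and 2802 bp for CALR, against 4695 and 2714 bp of annotated exon. For ERN1 and EIF2AK3 it was 19153 and 20691 bp, against 10864 and 5434 bp. By mean CPM, which is not scaled for length, HSPA5 (1742), HSP90B1 (1397) and CANX (1279) stood above CALR (793). ERN1 (63.7) and ATF6 (101) then stood above DERL1 (55.5) and SEC61G (48.6), while EIF2AK3 (24.5) stayed below them. Together the 46 genes took 1.02% to 1.28% of all counts, and the lowest share was that of FGFBP1-CM replicate 1.

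**Figure D1:**
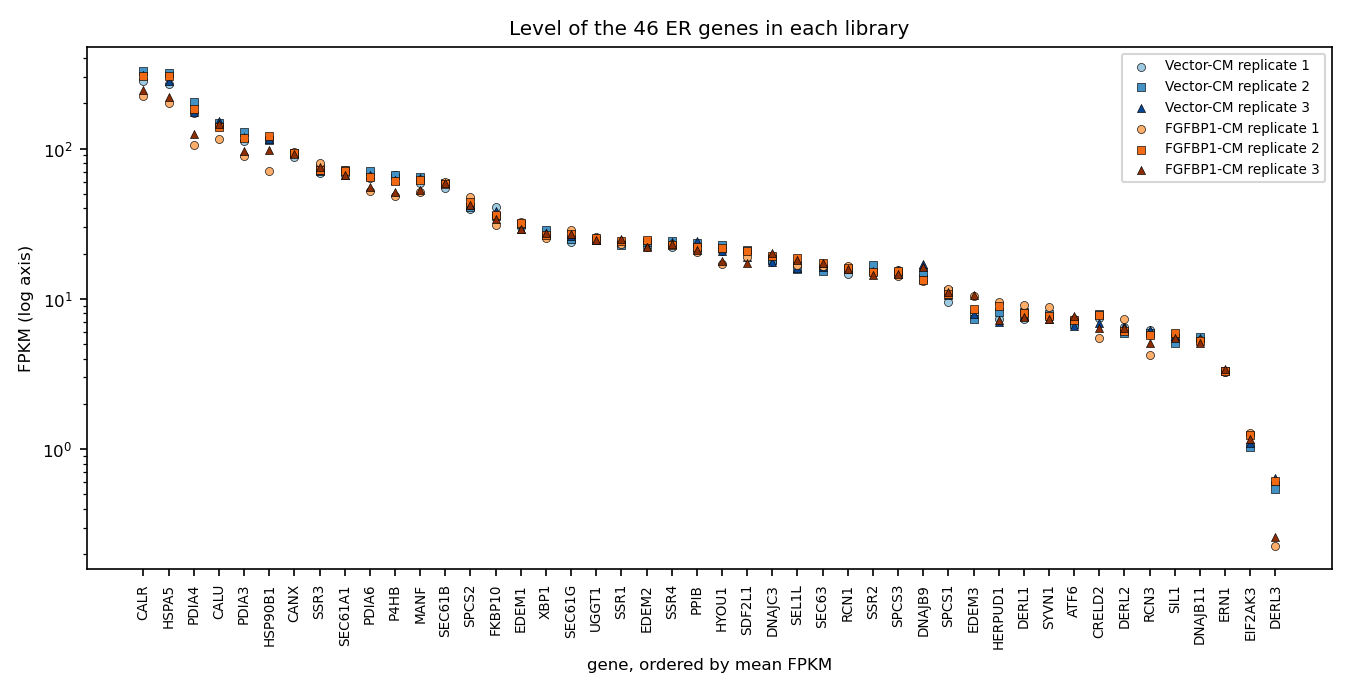
FPKM (log axis) of the 46 ER genes in each of the 6 libraries, ordered by the mean over libraries; blue symbols are Vector-CM and orange symbols FGFBP1-CM, with 1 symbol per library. CALR, HSPA5 and PDIA4 have the highest means, 282, 266 and 161 FPKM, and DERL3 is last at 0.478 FPKM.

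Total counts ranged from 14003780 to 18508113 per library. FGFBP1-CM replicate 1 lay farthest out on the first principal component of all tested genes, which carried 47.0% of the variance. The summed level of 10 stellate and mesenchymal markers was 3476 to 3754 CPM in Vector-CM and 2727 to 3305 CPM in FGFBP1-CM, with DES alone under 1 CPM. Of 10 colorectal epithelial markers, 9 were under 1 CPM on average, and their sum was 4.27 to 6.13 CPM in Vector-CM and 3.96 to 5.02 CPM in FGFBP1-CM. A list of 12 hepatocyte markers, with 7 under 1 CPM, summed to 41.5 to 44.5 CPM in Vector-CM and 18.3 to 28.1 CPM in FGFBP1-CM. SERPINA1 carried most of that sum, with a log2 fold change of -0.53, and all 6 hepatocyte markers that were tested were lower at an unadjusted p under 0.05 (edgeR), with a median log2 fold change of -2.31. None of these markers was at 0 in all libraries, and 4 of the hepatocyte markers were among the 20 genes of the table past the adjusted threshold. The part of these markers in the results that follow was not tested.

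No member passed an adjusted p of 0.05 (edgeR quasi-likelihood test, Benjamini-Hochberg over all 16707 genes), a threshold that 20 genes or 0.120% of all tested genes passed. The lowest adjusted p among the members was 0.0847 (edgeR), shared by P4HB and EDEM3. At an unadjusted p under 0.05, 13 of the 46 were lower in FGFBP1-CM, which is 28.3% against 10.7% of all tested genes. A single member, EDEM3, was higher at that level, which is 2.17% against 11.1% of all tested genes. The 3 libraries of each group did not overlap for 6 members that were lower (13.0%, against 13.2% of all tested genes) and for 4 that were higher (8.70%, against 12.8%), so these shares were near or under the background. The median log2 fold change was -0.029 over the members and 0.0032 over all tested genes, with 26 members below 0 and 20 above. With libraries scaled by their total counts alone the median was 0.0050 over the members and 0.037 over all tested genes, so the members stayed below all genes by a like amount.

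The counts depended on single libraries. Without FGFBP1-CM replicate 2, 10 members were lower and 1 was higher at an adjusted p under 0.05 (edgeR), beside 474 lower and 409 higher of all 17133 genes then tested. At an unadjusted p under 0.05, 16 members were then lower, against 11.9% of all genes. That last count was 5 of 46 without FGFBP1-CM replicate 1, against 6.91% of all genes, and 8 without FGFBP1-CM replicate 3, against 10.6%. Without Vector-CM replicates 1, 2 and 3 in turn it was 10, 4 and 5 of 46, against 7.59%, 8.10% and 6.96% of all genes. Members whose groups did not overlap numbered 20 (43.5%) without Vector-CM replicate 1, against 37.1% of all genes in that fit, and 24 (52.2%) without FGFBP1-CM replicate 2, against 40.0%. In the other fits the share of the members was the lower one. It was 23.9% against 36.2% without Vector-CM replicate 2 and 23.9% against 33.2% without Vector-CM replicate 3. Without FGFBP1-CM replicate 1 it was 28.3% against 31.3%, and without FGFBP1-CM replicate 3 it was 30.4% against 38.4%. With no filter on low counts, 7 members were lower and 1 higher at an adjusted p under 0.05 (edgeR), beside 549 lower and 833 higher of 38002 genes. The Wald test of DESeq2 called P4HB lower and EDEM3 higher, while limma on FPKM called none. All 13 lower members kept a negative log2 fold change in all 14 alternatives fitted with edgeR or DESeq2, whereas 28 of the 46 members kept their sign. The limma fits were not part of these counts.

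The 13 lower members had a common pattern over the FGFBP1-CM libraries. As a percent of the Vector-CM mean, their median was 71.9% in replicate 1, 96.1% in replicate 2 and 80.7% in replicate 3. FGFBP1-CM replicate 1 was the lowest of all 6 libraries for 12 of the 13, and for 8 of the 13 replicate 2 lay within or above the range of the Vector-CM libraries. The same shares over all tested genes were not computed. The order was not particular to these members. Cytosolic heat shock chaperones, described below, had median log2 ratios to the Vector-CM mean of 0.36, 0.075 and 0.23 in FGFBP1-CM replicates 1 to 3. For the secreted matrix proteins these medians were -0.43, -0.21 and -0.42. In the plot of single libraries the orange circles and triangles of HSPA5, HYOU1, HSP90B1, CALR and the 4 disulfide isomerases lie to the left of their blue symbols. The orange squares lie among the blue for HSPA5, HYOU1, CALR, PDIA3, PDIA4 and PDIA6, left of them for P4HB and right of them for HSP90B1.

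**Figure D2:**
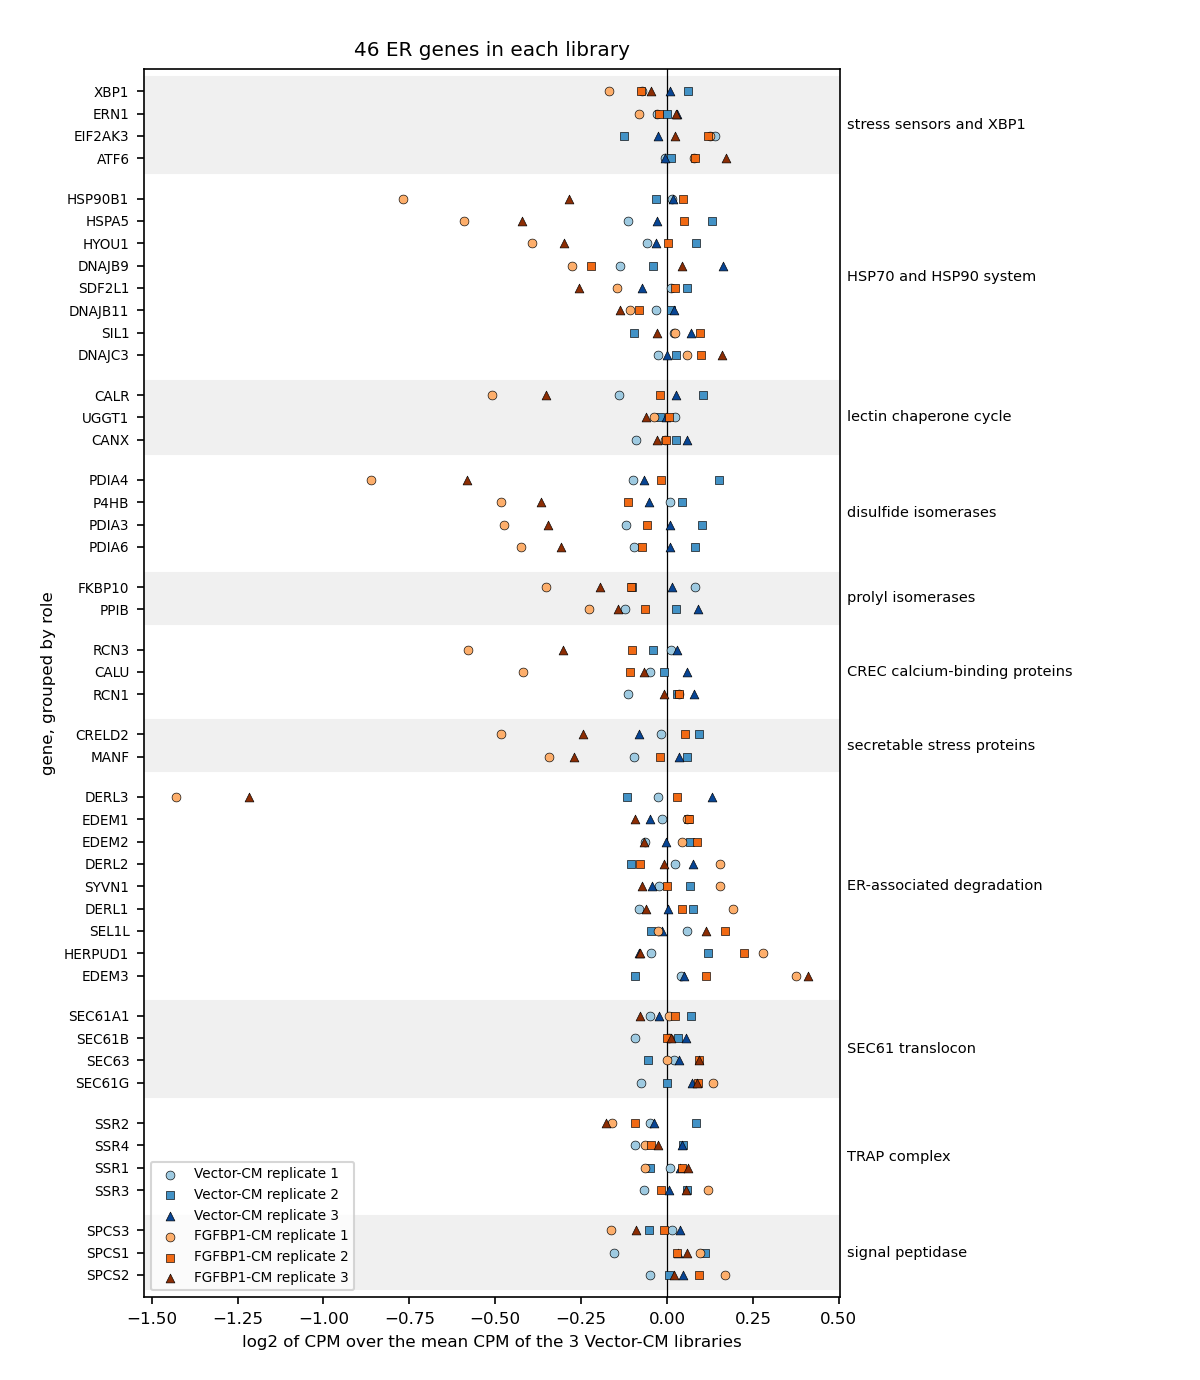
Each of the 46 ER genes by role group, as the log2 of the CPM in a library over the mean CPM of the 3 Vector-CM libraries. FGFBP1-CM replicates 1 and 3 lie below all Vector-CM libraries for HSPA5, HYOU1, HSP90B1, CALR and the 4 disulfide isomerases (PDIA4 at 55.0% and 66.8% of the Vector-CM mean), while FGFBP1-CM replicate 2 lies within the Vector-CM range for 6 of these 8 (not P4HB and HSP90B1).

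Among the stress sensors and XBP1, no member had an unadjusted p under 0.05. ERN1, the IRE1 kinase and nuclease that splices XBP1, measured 62.9, 64.2 and 65.6 CPM in Vector-CM replicates 1 to 3 and 60.7, 63.3 and 65.4 CPM in FGFBP1-CM replicates 1 to 3. ATF6, the membrane-bound transcription factor, was at 97.0, 98.3 and 97.0 CPM in Vector-CM and 103, 103 and 109.7 CPM in FGFBP1-CM. The ATF6 libraries did not overlap between the groups, with all 3 FGFBP1-CM values higher, but the log2 fold change of 0.11 (SE 0.061) had an unadjusted p of 0.0933 and an adjusted p of 0.313 (edgeR). EIF2AK3, the PERK kinase, was at 26.2, 21.8 and 23.3 CPM in Vector-CM and 25.9, 25.8 and 24.2 CPM in FGFBP1-CM. XBP1, whose spliced product drives chaperone and degradation genes, was at 80.8, 88.7 and 85.5 CPM in Vector-CM and 75.6, 80.7 and 82.3 CPM in FGFBP1-CM. The groups overlapped for ERN1, EIF2AK3 and XBP1, and their log2 fold changes were -0.026 (95% confidence interval -0.17 to 0.11), 0.087 (-0.11 to 0.28) and -0.095 (-0.24 to 0.049). Gene counts do not separate spliced from unspliced XBP1 and do not measure cleavage of ATF6 or phosphorylation of the kinases.

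The HSP70 and HSP90 chaperones of the lumen and their cochaperones had a median log2 fold change of -0.13, with 2 of 8 lower at an unadjusted p under 0.05. HSPA5, the HSP70 chaperone BiP that binds unfolded chains and restrains the sensors (ENSG00000044574, chromosome 9, 125234853 to 125241330, minus strand, 8 exon blocks; GRCh38, GENCODE release 29, as for the other genes), was at 1775, 2101 and 1881 CPM in Vector-CM and 1274, 1987 and 1432 CPM in FGFBP1-CM. FGFBP1-CM replicates 1 and 3 lay under every Vector-CM library at 66.4% and 74.6% of the Vector-CM mean, and replicate 2 lay inside the Vector-CM range, so the groups overlapped. The log2 fold change of HSPA5 was -0.29 (SE 0.13, 95% confidence interval -0.57 to -0.016), with an unadjusted p of 0.0398 and an adjusted p of 0.205 (edgeR). It was -0.16 without FGFBP1-CM replicate 1 and -0.50 without FGFBP1-CM replicate 2, where the adjusted p was 0.0128 (edgeR).

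HYOU1, the large HSP70-like protein that exchanges nucleotide on HSPA5, was at 162, 179 and 165 CPM in Vector-CM and 128, 169 and 137 CPM in FGFBP1-CM. It had the same order of libraries and the same overlap through replicate 2, with a log2 fold change of -0.22 (SE 0.091, edgeR adjusted p = 0.185). HSP90B1, the lumenal HSP90 chaperone GRP94, was chosen for its values after they were seen and measured 1556, 1505 and 1559 CPM in Vector-CM and 904, 1591 and 1265 CPM in FGFBP1-CM. Its replicate 2 in FGFBP1-CM was the highest of the 6 libraries and its replicate 1 the lowest, and the log2 fold change of -0.30 (SE 0.14) had an unadjusted p of 0.0561 (edgeR). Among the cochaperones DNAJB9, DNAJB11 and SDF2L1 had log2 fold changes of -0.14, -0.11 and -0.12, while SIL1, another exchange factor of HSPA5, had 0.030. DNAJB11 was at 51.3, 52.8 and 53.2 CPM in Vector-CM and 48.6, 49.6 and 47.7 CPM in FGFBP1-CM, so its 3 FGFBP1-CM libraries were all below the 3 Vector-CM libraries by little (unadjusted p = 0.122, edgeR). DNAJC3, an HSPA5 cochaperone known as an inhibitor of PERK, had 0.11, and its 3 FGFBP1-CM libraries were all above the 3 Vector-CM libraries (edgeR adjusted p = 0.334).

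The lectin cycle, which holds glycoproteins until they are folded, had 1 of 3 members lower at an unadjusted p under 0.05 and a median log2 fold change of -0.031. CALR, the soluble lectin calreticulin (ENSG00000179218, chromosome 19, 12938578 to 12944489, plus strand, 7 exon blocks), was at 789, 934 and 886 CPM in Vector-CM and 611, 858 and 682 CPM in FGFBP1-CM. FGFBP1-CM replicates 1 and 3 were under all Vector-CM libraries and replicate 2 was within their range, and the log2 fold change was -0.28 (SE 0.11, unadjusted p = 0.0212, edgeR adjusted p = 0.159). CANX, its membrane-anchored counterpart calnexin, was at 1207, 1309 and 1338 CPM in Vector-CM and 1280.2, 1282 and 1259 CPM in FGFBP1-CM. All 3 FGFBP1-CM values of CANX fell inside the Vector-CM range, and the log2 fold change was -0.012 with a 95% confidence interval of -0.15 to 0.13. UGGT1, the enzyme that returns misfolded glycoproteins to the cycle, had -0.031 (-0.16 to 0.096). The difference between CALR and CANX in response was itself not tested.

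The protein disulfide isomerases were the role group with the lowest median log2 fold change, -0.30, and all 4 were lower at an unadjusted p under 0.05. P4HB, the archetypal disulfide isomerase and a subunit of the collagen prolyl 4-hydroxylase (ENSG00000185624, chromosome 17, 81843159 to 81860694, minus strand, 11 exon blocks), was at 739.7, 757 and 709 CPM in Vector-CM and 526, 679.6 and 571 CPM in FGFBP1-CM. All 3 FGFBP1-CM libraries of P4HB were below all 3 Vector-CM libraries, at 71.6%, 92.4% and 77.6% of the Vector-CM mean. Its log2 fold change was -0.31 (SE 0.086, 95% confidence interval -0.50 to -0.13), with an unadjusted p of 0.00284 and an adjusted p of 0.0847 (edgeR). It was -0.23 without FGFBP1-CM replicate 1 (adjusted p = 0.164) and -0.42 without FGFBP1-CM replicate 2 (adjusted p = 0.0123).

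PDIA4, a multidomain isomerase, had the largest difference of the 4, and it and the next 2 were chosen for their values after these were seen. It was at 575, 683 and 587 CPM in Vector-CM and 339, 608 and 411 CPM in FGFBP1-CM. Replicates 1 and 3 in FGFBP1-CM were far below every Vector-CM library and replicate 2 was between Vector-CM replicates 3 and 2, which gave a log2 fold change of -0.44 with the wide SE of 0.16 (edgeR adjusted p = 0.135). PDIA3, the isomerase that partners with calreticulin and calnexin, was at 473, 551 and 517 CPM in Vector-CM and 369, 494 and 404 CPM in FGFBP1-CM, a log2 fold change of -0.28. PDIA6, which acts with HSPA5, was at 261, 295 and 281 CPM in Vector-CM and 208, 265 and 225 CPM in FGFBP1-CM, a log2 fold change of -0.26. For both, FGFBP1-CM replicates 1 and 3 were under all Vector-CM libraries and replicate 2 overlapped them, with adjusted p of 0.126 and 0.118 (edgeR). The processed pseudogene PDIA3P1 had 5.55% as many counts as PDIA3, so the split of reads between the 2 is uncertain.

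**Figure D3:**
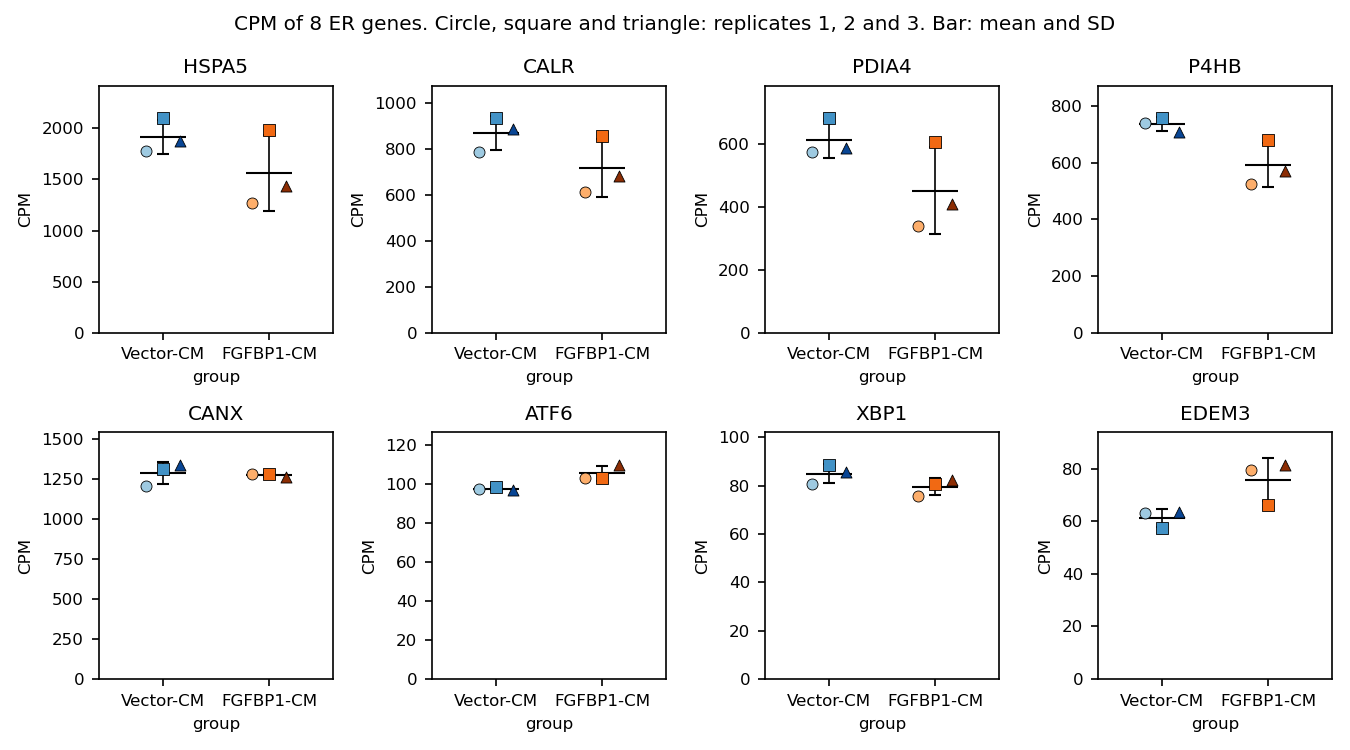
CPM in each library of 8 genes, with the mean and SD of the 3 libraries of a group as a bar and circles, squares and triangles for replicates 1, 2 and 3. P4HB and EDEM3 do not overlap between Vector-CM and FGFBP1-CM, HSPA5, CALR and PDIA4 overlap through FGFBP1-CM replicate 2, and the FGFBP1-CM libraries of CANX lie inside the Vector-CM range.

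The prolyl isomerases and the calcium-binding CREC proteins held further lower members. FKBP10, a prolyl isomerase of collagen folding, was at 173, 152 and 165 CPM in Vector-CM and 128, 152 and 142 CPM in FGFBP1-CM. The groups did not overlap, although FGFBP1-CM replicate 2 and Vector-CM replicate 2 differed by under 1 CPM, and the log2 fold change was -0.22 (SE 0.076, edgeR adjusted p = 0.137). PPIB, cyclophilin B, had a log2 fold change of -0.14 (unadjusted p = 0.0722, edgeR). Of the CREC proteins, which carry EF hands and reside in the secretory pathway, CALU (calumenin) was at 925, 951 and 998 CPM in Vector-CM and 716, 889 and 914 CPM in FGFBP1-CM. RCN3 was at 10.7, 10.3 and 10.8 CPM in Vector-CM and 7.07, 9.85 and 8.56 CPM in FGFBP1-CM. For both the 3 FGFBP1-CM libraries lay below the 3 Vector-CM libraries, with log2 fold changes of -0.19 (SE 0.087) and -0.32 (SE 0.13) and adjusted p of 0.221 and 0.185 (edgeR). RCN1 of the same family had 0.022, with a 95% confidence interval of -0.13 to 0.17.

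MANF and CRELD2 are small ER proteins that cells under ER stress secrete. MANF was at 127, 141 and 139 CPM in Vector-CM and 107, 133 and 112 CPM in FGFBP1-CM, with replicates 1 and 3 of FGFBP1-CM under all Vector-CM libraries and replicate 2 among them. Its log2 fold change was -0.21 (SE 0.083, edgeR adjusted p = 0.178). CRELD2 had nearly the same log2 fold change, -0.21, with a larger SE of 0.11 and an unadjusted p of 0.0837 (edgeR).

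The genes of ER-associated degradation (ERAD), which extract misfolded proteins for the proteasome, had a median log2 fold change of 0.032, and 8 of 9 were above 0. EDEM3, a mannosidase that trims glycans of misfolded proteins (ENSG00000116406, chromosome 1, 184690231 to 184754913, minus strand, 21 exon blocks), was at 63.0, 57.5 and 63.4 CPM in Vector-CM and 79.6, 66.3 and 81.5 CPM in FGFBP1-CM. All 3 FGFBP1-CM libraries were higher than all 3 Vector-CM libraries, and here too replicate 2 was nearest to Vector-CM. The log2 fold change of EDEM3 was 0.31 (SE 0.084, 95% confidence interval 0.13 to 0.49), with an unadjusted p of 0.00282 and an adjusted p of 0.0847 (edgeR), and it reached 0.39 when FGFBP1-CM replicate 2 was left out (adjusted p = 0.0172).

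Its relative EDEM1, the ERAD member with the highest mean FPKM, was at 205, 215 and 199.7 CPM in Vector-CM and 215, 216 and 194 CPM in FGFBP1-CM, a log2 fold change of 0.012, and EDEM2 had 0.024. Both overlapped between the groups. The ubiquitin ligase SYVN1 and its partner SEL1L had 0.032 and 0.086, and HERPUD1, which assembles that complex, had 0.15 (unadjusted p = 0.137, edgeR). SYVN1 shares 398 bp of exon with FAU on the same strand, so its counts are uncertain. The channel-forming derlins DERL1 and DERL2 had 0.064 and 0.026. DERL3, the stress-induced derlin, was chosen for its values after they were seen and was at 2.23, 2.10 and 2.49 CPM in Vector-CM and 0.844, 2.32 and 0.979 CPM in FGFBP1-CM. Replicates 1 and 3 of FGFBP1-CM were the lowest and replicate 2 was inside the Vector-CM range, a log2 fold change of -0.74 (SE 0.33, edgeR adjusted p = 0.205). DERL3 had 175 counts over the 6 libraries and shares 2923 of its 3796 exon bases with SMARCB1 on the opposite strand, and without stated strandedness its reads cannot be told apart from those of SMARCB1.

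Genes of entry into the ER showed small differences. SEC61A1, the pore of the translocon, was at 313, 339.7 and 319 CPM in Vector-CM and 325, 329 and 307 CPM in FGFBP1-CM, and the groups overlapped, with a log2 fold change of -0.015 (95% confidence interval -0.15 to 0.12). SEC61G, its smallest partner, was at 44.4, 46.8 and 49.2 CPM in Vector-CM and 51.3, 49.8 and 49.7 CPM in FGFBP1-CM. The 3 FGFBP1-CM libraries of SEC61G were above the 3 Vector-CM libraries by little, and the log2 fold change of 0.10 had an adjusted p of 0.399 (edgeR). SEC61B and SEC63 had 0.0069 and 0.061.

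In the translocon-associated protein (TRAP) complex, SSR3 was at 358, 390.4 and 377 CPM in Vector-CM and 408, 371 and 389.7 CPM in FGFBP1-CM, with overlapping groups and a log2 fold change of 0.054. SSR2 was at 103, 113 and 104 CPM in Vector-CM and 95.8, 100.3 and 94.5 CPM in FGFBP1-CM. All FGFBP1-CM values of SSR2 were lower, a log2 fold change of -0.14 (SE 0.065, unadjusted p = 0.0468, edgeR adjusted p = 0.222), while SSR1 and SSR4 had 0.014 and -0.045. SPCS2, an accessory subunit of signal peptidase, was at 119.5, 124 and 128 CPM in Vector-CM and 139, 132 and 126 CPM in FGFBP1-CM. Its groups overlapped and its log2 fold change was 0.096 (-0.043 to 0.24), and a pseudogene, SPCS2P4, had 6.46% as many counts. SPCS1 and SPCS3 had 0.063 and -0.086, and SPCS1 shares 2698 bp of exon with NEK4 on the opposite strand.

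**Figure D4:**
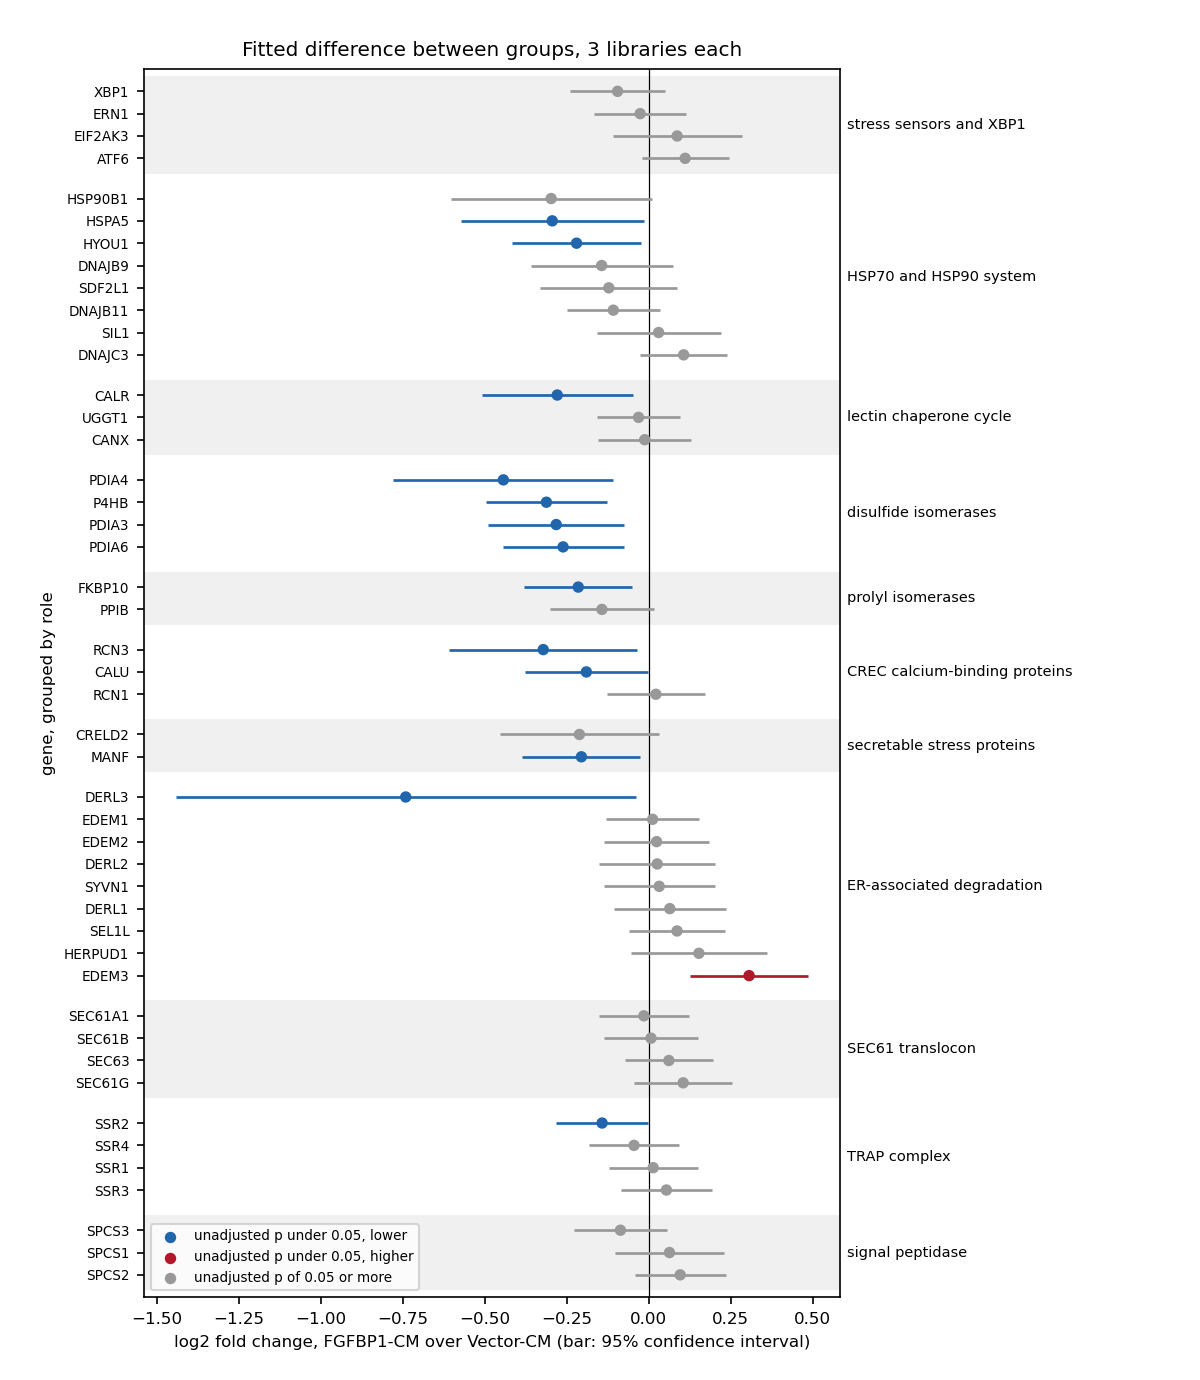
Log2 fold change of FGFBP1-CM over Vector-CM with its 95% confidence interval for the 46 ER genes by role group (edgeR, 3 libraries a group); blue and red mark an unadjusted p under 0.05. Of the 13 lower members, 4 are the disulfide isomerases, and the translocon and signal peptidase rows all cross 0.

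When the role groups were joined after the values had been seen, the 22 members that fold proteins (from the HSP70 and HSP90 system to MANF and CRELD2) had a median log2 fold change of -0.21, with 19 below 0 and 11 (50%) lower at an unadjusted p under 0.05, against 10.7% of all tested genes. The other 24 members (sensors, ERAD and entry) had a median of 0.029, with 7 below 0 and 2 (8.33%) lower, near that background. The median of the folding members was -0.37, -0.019 and -0.25 in FGFBP1-CM replicates 1 to 3, as log2 of the CPM over the Vector-CM mean. It was -0.11 without FGFBP1-CM replicate 1, -0.29 without replicate 2 and -0.19 after correction for GC content and length. This split describes these libraries, and no test was made of it.

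The share of lower genes was also set beside the level of a gene, at a single limit chosen after the values were seen. At a mean of 50 FPKM or more, 8 of 13 members or 61.5% were lower at an unadjusted p under 0.05, against 26.9% of the 677 tested genes above that level. Below it, 5 of 33 members or 15.2% were lower, against 9.97% of the 16030 tested genes. Higher at that p were 6.65% of all tested genes at or above the limit and 11.3% below it. Lower genes were thus more frequent above this limit among all tested genes too, and the share of the members has to be read beside that.

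The promoter elements printed above can be set beside the fold changes. All 6 members with an ERSE had a log2 fold change below 0, with a median of -0.25, but only HSPA5 and CALR had an unadjusted p under 0.05. CANX and XBP1 carried the element with -0.012 and -0.095. Of the 3 members with an ERSE-II, HYOU1 was lower at an unadjusted p under 0.05, SDF2L1 had -0.12 and HERPUD1 0.15. The 9 members with either element had a median of -0.21, and those whose window held neither had 0.0093. The 5 genes with no window were left out of both. Either element was in 7 of 20 windows of folding members and in 2 of 21 windows of the other members. This contrast was not tested apart from the split between folding and other members. A further 34 genes of the genome had either element in their window, and 22 of them were tested. Of these 16 were below 0 and 4 were lower at an unadjusted p under 0.05, with a median of -0.043, and none was higher at that level. Of all 16707 tested genes 8235 were below 0, and 10.7% were lower and 11.1% higher at that level. Of the 13 members lower at an unadjusted p under 0.05, 3 had an element (HSPA5, HYOU1 and CALR), 7 had a window with neither (PDIA4, PDIA6, P4HB, CALU, RCN3, MANF and SSR2) and 3 had no window in the table (PDIA3, FKBP10 and DERL3).

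Another 89 genes of the same pathway, 88 of them tested, had a median log2 fold change of -0.051, with 15 lower and 13 higher at an unadjusted p under 0.05 and none past the adjusted threshold. The counts of this list and of those that follow stand beside 10.7% lower and 11.1% higher among all tested genes. The signal that holds lumenal chaperones in the ER is a short C-terminal tail read by the KDEL receptors, and all 3 receptor genes were lower at an unadjusted p under 0.05. KDELR3 was at 70.5, 71.6 and 73.6 CPM in Vector-CM and 44.0, 58.7 and 55.1 CPM in FGFBP1-CM. The groups did not overlap, and its log2 fold change of -0.45 (SE 0.093) had an adjusted p of 0.0568 (edgeR). KDELR1 and KDELR2 had -0.21 and -0.23, also without overlap. KDELR3 was the member of 20 other folding factors with the lowest p, and 7 of these 20 were lower and 2 higher.

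Of 10 genes of oligosaccharyltransferase, which attaches N-glycans, 1 was lower at an unadjusted p under 0.05. That was DDOST, at 261, 283 and 264 CPM in Vector-CM and 234, 261 and 229 CPM in FGFBP1-CM, a log2 fold change of -0.16. All FGFBP1-CM values of DDOST were below the Vector-CM range. Of 13 genes of the signal recognition particle and targeting, 2 were higher, led by the catalytic signal peptidase subunit SEC11C at 21.6, 24.2 and 25.9 CPM in Vector-CM and 34.3, 27.9 and 28.7 CPM in FGFBP1-CM. Its groups did not overlap, with a log2 fold change of 0.35 (edgeR adjusted p = 0.0938). Of 11 other ERAD factors only FAF2 was higher, at 153, 174 and 166 CPM in Vector-CM and 230.0, 174 and 179 CPM in FGFBP1-CM. The excess of FAF2 lay mainly in replicate 1, and the log2 fold change was 0.25.

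The list here called the PERK arm had 5 of 9 higher and 1 lower at an unadjusted p under 0.05 (11.1% and 10.7% of all tested genes). Its median log2 fold change was 0.23. The activity of PERK was not measured, so the name of the list does not tie these values to that kinase. CHAC1, a glutathione-degrading enzyme induced through ATF4, was at 1.17, 0.796 and 0.943 CPM in Vector-CM and 3.85, 1.44 and 1.96 CPM in FGFBP1-CM. All 3 FGFBP1-CM libraries were higher, a log2 fold change of 1.32 (SE 0.36, edgeR adjusted p = 0.0847). ATF4 itself had 0.23, DDIT3 0.26, TRIB3 0.35 and SESN2 0.40, while ATF3 had -0.23 and ASNS -0.29. The median of this list was 0.45, 0.040 and 0.12 in FGFBP1-CM replicates 1 to 3, so replicate 1 again stood farthest from Vector-CM.

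Of 10 tested stress regulators 2 were higher and 2 lower, with MBTPS2, the protease that completes the cleavage of ATF6, at 70.5, 73.9 and 71.4 CPM in Vector-CM and 88.2, 80.5 and 82.3 CPM in FGFBP1-CM. All FGFBP1-CM libraries were above all Vector-CM libraries, a log2 fold change of 0.22 (edgeR adjusted p = 0.0968). In COPII exit 4 of 15 genes were lower and 1 was higher. The higher one, the small GTPase SAR1B, was at 94.8, 91.0 and 98.4 CPM in Vector-CM and 115, 100.2 and 109 CPM in FGFBP1-CM without overlap, a log2 fold change of 0.19.

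A pair of lists shows where the ER genes stood among related systems. The cytosolic heat shock chaperones, which fold proteins outside the ER, had a median log2 fold change of 0.24, with 9 of 14 higher and 1 lower at an unadjusted p under 0.05 and none past the adjusted threshold. HSPA1A, the inducible cytosolic HSP70, was at 125, 132 and 137 CPM in Vector-CM and 253, 153 and 195 CPM in FGFBP1-CM, a log2 fold change of 0.61 (edgeR adjusted p = 0.0568), against -0.29 for HSPA5 in the ER. The matrix proteins that pass through the ER had a median of -0.35, with 14 of 20 lower and TIMP1 past the adjusted threshold (log2 fold change -0.38, edgeR adjusted p = 0.0465). In the plot of list medians, FGFBP1-CM replicates 1 and 3 were the outermost libraries in both lists, toward opposite sides. Differences between these lists and the ER genes were not tested.

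**Figure D5:**
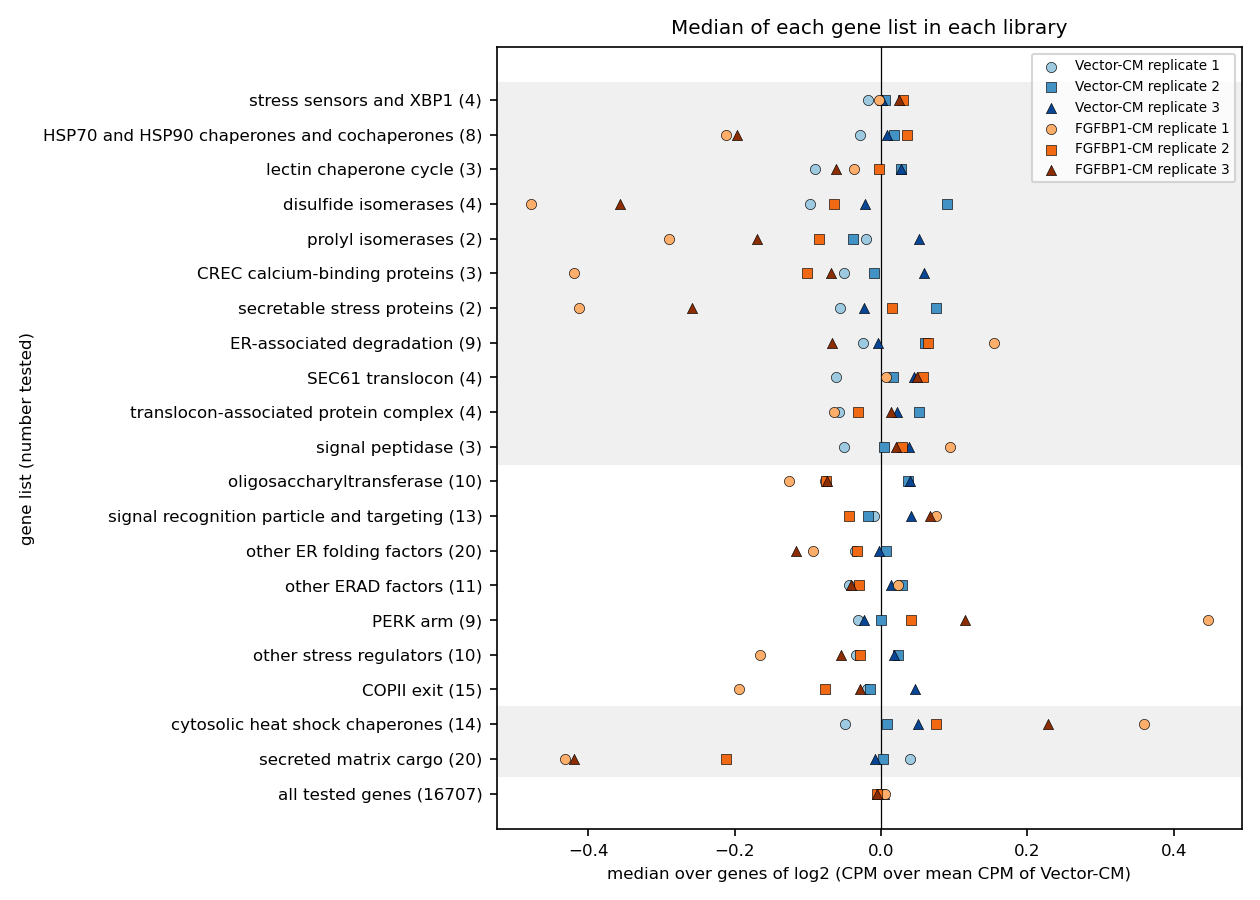
Median over the genes of each list of the log2 CPM over the Vector-CM mean, 1 symbol per library, for the 11 role groups, 7 lists of other pathway genes, 2 compared lists and all tested genes. Disulfide isomerases and matrix cargo lie left of 0 in FGFBP1-CM replicates 1 and 3, the PERK arm and the cytosolic heat shock chaperones lie right, and all tested genes lie at 0 in every library.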

How the data were processed

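Paired-end reads were aligned by the authors with HISAT2 2.0.5 and assigned to genes with featureCounts 1.5.0-p3, and the table they deposited holds a raw read count per gene for the 6 libraries. It also holds FPKM, which the authors derived from those counts. The submitters' processing notes name the build hg18. The annotation release and strandedness are not given in the sources used here, and both poly(A) selection and ribosomal RNA depletion are described. Exon overlaps come from GENCODE release 29 (GRCh38), and promoter windows from RefSeq (GRCh38.p14).

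Counts were fitted over the whole table with edgeR 4.0.16 in R 4.3.3 (filterByExpr, TMM, quasi-likelihood F-test), with p-values adjusted by the Benjamini-Hochberg method over 16707 genes at a threshold of 0.05. The SE is the log2 fold change divided by the square root of F. The alternatives tried were scaling by RLE or by library size only, no filter, a mean of at least 1 CPM, DESeq2 1.42.0, a correction for GC content and length (loess, span 0.3, for the 98.2% of genes with both values), the replicate number as a block, both together, each library left out, and limma 3.58.1 on log2(FPKM + 1) or log2(FPKM + 0.1).

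Named with every library were ERN1, ATF6, EIF2AK3, XBP1, the member with the highest mean CPM and the one with the lowest p in each role group, and the gene with the lowest p in each list of other pathway genes. Outside this rule, DNAJB11, HSPA1A and the genes marked as chosen for their values were also printed with every library. The members, lists and tests were chosen with earlier results of these data known. Replicate pairs differed by more than sampling noise, so no libraries were merged. With 3 libraries against 3, an exact permutation test cannot go below 0.1 and none was run.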

Additional observations from a re-analysis of the deposited data

How the results depend on the processing

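Members past the adjusted threshold numbered 0 with RLE scaling, library size only, a minimum of 1 CPM, the replicate block and the GC and length correction, 8 with no filter on low counts, 2 with DESeq2 and 1 with the GC and length correction plus the replicate block (PDIA3), and 0 to 11 with a library left out. Members lower at an unadjusted p under 0.05 numbered 8 with DESeq2, 15 with the replicate block, 6 and 7 with limma on log2(FPKM + 1) and log2(FPKM + 0.1) (3 higher in each, and 1 gene of the table past the adjusted threshold) and 4 to 16 with a library left out, and members higher 3 with library size only and 1 to 2 with a library left out. Of all genes in the same fits, 7.997% were lower at that p with DESeq2 and 10.62% with the replicate block. With limma 7.296% and 7.272% were lower, and with a library left out 6.91% to 11.9%. The share of all genes that were higher was not set beside the counts of higher members in these fits. Members whose groups did not overlap numbered 11 to 24 with a library left out, where 31.3% to 40.0% of all genes did not overlap. Over all genes the number past the adjusted threshold was 38 with RLE scaling, 1382 with no filter, 11 at a minimum of 1 CPM, 616 with DESeq2, 90 with the replicate block, 111 with the replicate block and GC and length correction, and 4 to 883 with a library left out. The cause of these shifts was not tested. The median of all genes moved to 0.037 with library size only and to 0.024 and 0.035 with limma, above every value given for these settings in the next sentence. Log2 fold changes near 0 changed sign: ERN1 to 0.0075 with library size only and 0.0054 or 0.0068 with limma on FPKM, CANX to 0.022, 0.00012 without a filter and 0.022 or 0.023 with limma, SEC61A1 to 0.019, 0.018 or 0.019 with limma and 0.0078 or 0.0079 with the GC and length correction without or with the replicate block, and EDEM1 to -0.016 or -0.017 and SSR3 to -0.012 or -0.011 with that correction without or with the block. With a library left out ERN1 ranged from -0.053 to 0.0047, CANX from -0.054 to 0.018, EDEM1 from -0.015 to 0.061 and SEC61A1 from -0.038 to 0.020. The deviations of same-numbered libraries had correlations of -0.14, -0.018 and 0.16 over 15033 genes. With 3 libraries a group these values cannot decide whether the numbers pair the libraries.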

Other observations

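Outside the 46 genes, the 4 tested genes with an ERSE or ERSE-II in the promoter window that were lower at an unadjusted p under 0.05 were chosen after their values were seen. They were NUCB1, which encodes a calcium-binding protein of the secretory pathway (log2 fold change -0.29, adjusted p = 0.078, edgeR), TMEM120A (-0.21, adjusted p = 0.13), CAMTA1 (-0.16, adjusted p = 0.184) and CLEC4F (-0.82, adjusted p = 0.212). None of the 4 passed the adjusted threshold. ERO1B, an oxidase that supplies the disulfide isomerases with oxidizing power, and SERP1, a protein that protects nascent chains under ER stress, also carried an element and had log2 fold changes of -0.085 and -0.027.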
